A study of Mus musculus with 11 samples.

Results

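In mouse esophagus, 3877 regions of chromatin were open in 3 of 3 libraries from Krt5-SmoM2 mice, closed in 3 of 3 wild-type libraries, and open again in 3 of 3 libraries from Krt5-SmoM2-Sox9fl/fl mice. They are called kept regions here, because they were gained with SmoM2 and were still open where Sox9 was floxed. They were chosen by the openness of the 9 adult libraries themselves, among 124941 regions made by merging the deposited intervals of all 11 libraries on chromosomes 1 to 19 and X wherever they shared at least 1 bp. The kept regions are 3.1% of those regions and 44.9% of the 8637 regions gained in SmoM2. The opposite group of gained regions, open in 0 of 3 of the Sox9-floxed libraries, held 1155 regions and is called the regions not kept. A region counted as open in a library where that library's list had an interval overlapping it.

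The assay was ATAC-seq, which marks accessible DNA by letting a transposase cut and tag it. The wild-type group (WT, 3 libraries) came from CD1 mice, and its cells were sorted for low EpCAM, an adhesion protein of epithelial cells. The SmoM2 group (3 libraries) came from CD1 mice of genotype Krt5-SmoM2, and the SmoM2-Sox9cKO group (3 libraries) from mice of genotype Krt5-SmoM2-Sox9fl/fl with no strain given. Both were sorted for high EpCAM, so genotype and EpCAM gate cannot be told apart wherever either is set against WT. The Embryo group (2 libraries) was Krt8YFP esophagus at embryonic day 13, sorted on YFP. The labels give no age, treatment or sex for the adult mice, and do not say how recombination was started or whether replicates were separate animals. SmoM2 is driven through Krt5, a keratin of basal epithelial cells, and the share of sorted cells that carried it active is not stated. The floxed allele was not checked in the reads, since the deposited lists of open intervals do not show a deletion.

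As background, Smoothened is the membrane protein that passes on the Hedgehog signal once the receptor Patched releases it, and SmoM2 is a mutant form that stays active without a ligand. The signal ends in the GLI transcription factors, which raise target genes such as Gli1 and Ptch1. Sox9 is a transcription factor of progenitor cells in endoderm, hair follicle and cartilage, and it is induced by Hedgehog signaling in several tissues. Open regions away from gene starts are often enhancers, which work from a distance, whereas open regions at gene starts are promoters and tend to stay open across cell types.

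Few kept regions covered a gene start, and the start windows that lay whole inside one are shown here because they are the only kept sequences held in the reference tables used. The 250 bases before each start were taken from the RefSeq promoter table (GRCm38.p6), which has a window for 79.9% of protein-coding genes. Of the 47 such windows inside kept regions, 9 of protein-coding genes are printed, 5′ to 3′ on the strand of the gene. They were picked after their values were seen. Kit and Magi1 are shown because their starts were also open in both Embryo libraries, Trim2 because its start was open in Embryo 1, and the rest because they hold the letters of an AP-1 motif. Capitals mark matches, on either strand, to AP-1 (TGANTCA), RUNX (TGTGGT), TEAD (GGAATG), SOX (ATTGTT), GLI (TGGGTGG) or FOX (TGTTTAC).
Kit (chr5:75574737-75574986, plus strand): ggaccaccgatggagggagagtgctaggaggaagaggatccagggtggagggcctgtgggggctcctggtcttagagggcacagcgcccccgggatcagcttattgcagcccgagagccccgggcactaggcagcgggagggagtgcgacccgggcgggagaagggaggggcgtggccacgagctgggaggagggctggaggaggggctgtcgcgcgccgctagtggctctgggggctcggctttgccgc
Magi1 (chr6:93912964-93913213, minus strand): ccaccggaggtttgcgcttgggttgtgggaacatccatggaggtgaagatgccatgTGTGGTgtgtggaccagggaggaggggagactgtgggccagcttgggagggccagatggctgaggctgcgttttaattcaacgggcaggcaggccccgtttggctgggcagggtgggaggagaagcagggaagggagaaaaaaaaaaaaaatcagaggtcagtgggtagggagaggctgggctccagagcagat
Trim2 (chr3:84270784-84271033, minus strand): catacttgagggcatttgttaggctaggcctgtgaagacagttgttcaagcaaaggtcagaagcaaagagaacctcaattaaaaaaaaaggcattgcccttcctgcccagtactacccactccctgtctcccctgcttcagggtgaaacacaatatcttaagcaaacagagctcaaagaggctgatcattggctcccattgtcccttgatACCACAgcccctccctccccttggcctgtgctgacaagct
Triml1 (chr8:43141487-43141736, minus strand): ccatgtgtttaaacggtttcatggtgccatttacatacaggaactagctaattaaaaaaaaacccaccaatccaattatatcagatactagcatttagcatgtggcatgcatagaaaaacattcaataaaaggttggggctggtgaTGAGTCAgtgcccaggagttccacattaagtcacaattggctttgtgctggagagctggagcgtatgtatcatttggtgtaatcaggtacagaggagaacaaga
Pmch (chr10:88090822-88091071, plus strand): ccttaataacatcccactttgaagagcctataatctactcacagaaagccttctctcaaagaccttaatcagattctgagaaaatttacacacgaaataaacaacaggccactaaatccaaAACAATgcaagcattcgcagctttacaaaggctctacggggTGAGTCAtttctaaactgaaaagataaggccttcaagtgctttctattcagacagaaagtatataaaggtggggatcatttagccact
Ifi209 (chr1:173630609-173630858, plus strand): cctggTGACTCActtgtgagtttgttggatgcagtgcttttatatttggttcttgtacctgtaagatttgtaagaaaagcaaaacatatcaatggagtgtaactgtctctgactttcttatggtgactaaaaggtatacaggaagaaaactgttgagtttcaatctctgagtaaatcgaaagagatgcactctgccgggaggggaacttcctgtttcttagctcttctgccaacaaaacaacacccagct
Tmprss11d (chr5:86373388-86373637, minus strand): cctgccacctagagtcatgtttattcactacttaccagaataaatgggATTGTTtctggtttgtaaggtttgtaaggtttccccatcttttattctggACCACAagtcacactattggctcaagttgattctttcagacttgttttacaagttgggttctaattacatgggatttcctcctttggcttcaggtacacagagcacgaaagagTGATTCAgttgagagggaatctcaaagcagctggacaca
Cdyl (chr13:35659612-35659861, plus strand): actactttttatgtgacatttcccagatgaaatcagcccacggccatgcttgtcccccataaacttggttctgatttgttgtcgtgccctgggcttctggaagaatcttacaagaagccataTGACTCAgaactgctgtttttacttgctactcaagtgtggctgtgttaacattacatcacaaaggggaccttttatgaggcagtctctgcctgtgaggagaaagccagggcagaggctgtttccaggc
Fgf12 (chr16:28446076-28446325, minus strand): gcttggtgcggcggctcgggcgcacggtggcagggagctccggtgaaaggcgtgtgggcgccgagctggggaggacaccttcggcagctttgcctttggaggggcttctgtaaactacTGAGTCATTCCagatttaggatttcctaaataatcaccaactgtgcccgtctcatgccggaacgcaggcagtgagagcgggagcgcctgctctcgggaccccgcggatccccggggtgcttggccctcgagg

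In the Fgf12 window the AP-1 and TEAD letters overlap in a single run of capitals. The Tmprss11d window holds 1 SOX, 1 RUNX and 1 AP-1 match, and the Pmch window 1 SOX and 1 AP-1 match. The Kit window, with 70.8% G and C and 17 CpG dinucleotides, holds none of the 6 families searched. AP-1 letters were present in 7 of the 47 windows inside kept regions (14.9%, exact 95% interval 6.20 to 28.3%), against 6.78% of all 32585 start windows. RUNX letters were present in 12 of 47 (25.5%, interval 13.9 to 40.3%), against 13.9% of all windows. SOX letters were present in 12.8% against 9.34%, TEAD letters in 12.8% against 12.6% and GLI letters in 4.26% against 8.17%. Each of these intervals, those of AP-1 and RUNX included, holds the value of all windows. AP-1 letters were in 5 of 22 windows inside regions open in WT alone of the adult groups and in 2 of 7 inside regions not kept. RUNX letters were in 3 of 22 and 0 of 7. These shares describe the 47 windows, not the 9 printed ones, of which 6 were picked for AP-1 letters, and a match is not a site or a cause.

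The kept starts had the base composition of ordinary starts rather than of starts that are open everywhere. Median G and C content was 51.2% in the 47 windows, 52.4% in all start windows and 61.6% in the 13010 windows inside regions open in all 9 adult libraries. The observed over expected CpG ratio had a median of 0.352 in the kept windows, 0.378 in all windows and 0.754 in windows open in all 9. The 22 windows inside regions open in WT alone of the adult groups had medians of 50.8% and 0.303. The 7 inside regions not kept had 46.4% and 0.0868. This composition was thus not particular to kept starts. Most promoters of widely expressed genes are rich in CpG. Among the printed windows Kit had 17 CpG and Fgf12 had 20, and the other 7 had 0 to 5.

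Before the results, 1 library has to be set apart. SmoM2-Sox9cKO 3 alone was missing from 1654 further regions that met every other part of the rule, whereas SmoM2-Sox9cKO 1 alone was missing from 286 and SmoM2-Sox9cKO 2 alone from 199. Leaving it out raised the kept regions from 3877 to 5531 and the kept share of gained regions from 44.9% to 64.0%. The 9 adult lists held 69026 to 87910 intervals, that of SmoM2-Sox9cKO 3 held 74536, and the Embryo lists 24902 and 14255. As for the labelled tissue, 7 of 7 basal keratinocyte marker genes had open regions in every adult library. So did 5 of 5 genes in each of the squamous, columnar, endothelial and hair follicle sets, so this count does not tell cell types apart. The lists hold no read numbers and the depth of each library is unknown, so its part in the place of SmoM2-Sox9cKO 3 was not tested.

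Many SmoM2-gained regions were open with Sox9 floxed, though a smaller share than of regions that WT also had. By the same count, 6.91% of all regions were gained in SmoM2 and 4.26% were gained in SmoM2-Sox9cKO against WT, both read against WT as the rule was, so nothing is read from them. Among the 8637 gained regions, 3877 were open in 3 SmoM2-Sox9cKO libraries, 2139 in 2, 1466 in 1 and 1155 in 0. The share open in all 3 was 44.9% when no WT library was open, 61.6% when 1 was, 69.1% when 2 were and 94.1% when all 3 were. Regions open in all 9 adult libraries also ranked higher by −log10 p in the SmoM2 lists. Their median percentiles in SmoM2 1, 2 and 3 were 69.7, 69.4 and 73.2, against 42.6, 32.9 and 41.9 for gained regions. The part of peak strength in the rise was not tested. Between SmoM2-Sox9cKO and SmoM2 over all regions, 1.34% were lost in 3 of 3 and 0.678% gained. These shares use the contrasts that chose the regions, so they carry no test.

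**Figure D1:**
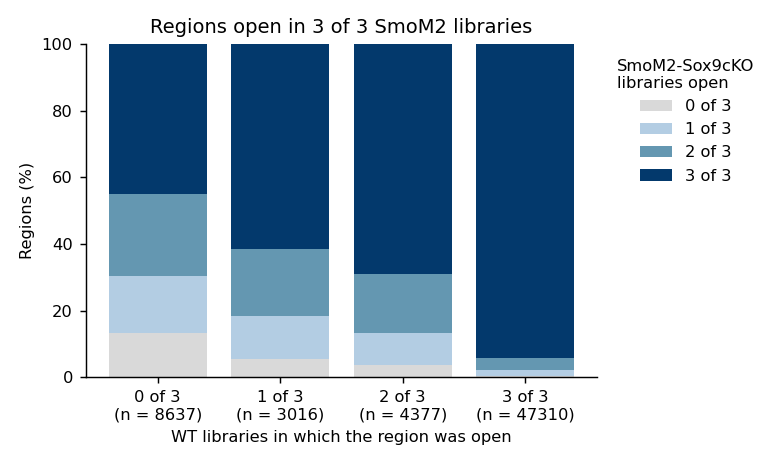
Bars show, for regions open in 3 of 3 SmoM2 libraries, the percentage open in 0, 1, 2 or 3 SmoM2-Sox9cKO libraries, split by the number of WT libraries in which they were open. The dark part, open in all 3, rises from 44.9% with no WT library open to 94.1% with 3.

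Each library was next left out while regions were chosen on the other 8, which gives a reading that the choice did not use. The left-out list still had its part in making the merged regions. Of regions chosen without SmoM2 1, SmoM2 2 or SmoM2 3, the left-out library was open at 95.3%, 88.1% and 98.6%. Of regions chosen without SmoM2-Sox9cKO 1, 2 or 3, it was open at 93.1%, 95.1% and 70.1%. All other regions were open in those 6 libraries at 56.9% to 67.3%. Left-out WT 1, WT 2 and WT 3 were open at 7.80%, 19.7% and 12.99% of regions chosen without them, against 54.98%, 62.2% and 61.4% of all other regions. Every left-out library of the SmoM2 and SmoM2-Sox9cKO groups was thus above its level at other regions and every left-out WT library below it, with SmoM2-Sox9cKO 3 nearest to its level at other regions. The chosen regions were already open in the other mutant libraries and closed in the other WT libraries. All other regions include those called in a single list. The direction was therefore largely set by the choice, and these shares are a description.

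Kept regions were of middle rank in the lists in which they were called. Intervals were ranked by the authors' −log10 p within each list, with 100 the strongest. The median rank percentile of the 3877 regions was 52.8, 43.0 and 53.2 in SmoM2 1, 2 and 3, and 44.8, 48.1 and 33.8 in SmoM2-Sox9cKO 1, 2 and 3. Regions open in all 9 adult libraries had medians of 69.0 to 73.2 in the same 6 lists. Gained regions that were not kept ranked far lower within SmoM2, at 28.2, 20.5 and 28.1. Median fold enrichment over background, the authors' own value for each peak, at kept regions was 5.99, 5.03 and 6.14 in SmoM2 and 5.25, 6.49 and 4.72 in SmoM2-Sox9cKO, so the groups overlapped.

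The stronger a gained region was in SmoM2, the larger the share kept. When gained regions were split into 5 equal parts by their median rank in SmoM2, the share kept rose from 17.6% in the weakest part through 31.6%, 39.4% and 57.2% to 78.8% in the strongest. The share open in 0 of 3 SmoM2-Sox9cKO libraries ran the other way, from 26.9% in the weakest part to 2.72% in the strongest. A weak region is more easily missed by a peak caller, and the part of calling strength in the difference between kept and not kept was not tested.

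**Figure D2:**
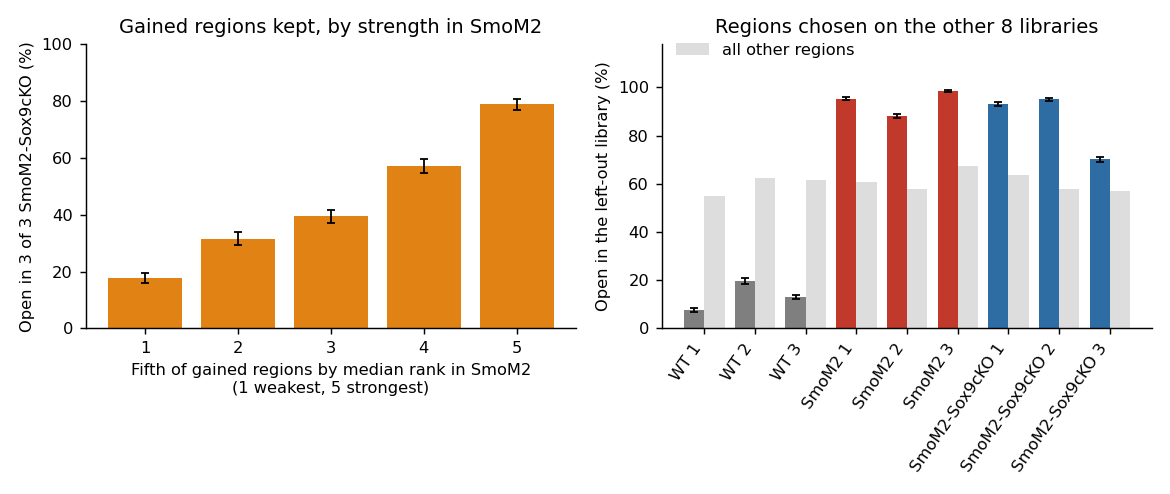
The left panel gives the percentage of SmoM2-gained regions open in 3 of 3 SmoM2-Sox9cKO libraries by strength in SmoM2, in 5 equal parts, from 17.6% to 78.8%. The right panel gives, for each adult library, the percentage of regions chosen on the other 8 libraries that were open in it (coloured) and of all other regions (grey). Bars of error are exact 95% binomial intervals, which cover counting error across regions only.

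The interval called at a kept region was narrower than at regions open everywhere. Median interval width was 602, 538 and 643 bp in SmoM2 1, 2 and 3, against 786, 812 and 890 bp at regions open in all 9. In SmoM2-Sox9cKO 1, 2 and 3 it was 579, 568 and 461 bp, against 917, 804 and 808 bp. Over all regions open in each list the median was 598, 617 and 633 bp in SmoM2 and 668, 620 and 629 bp in SmoM2-Sox9cKO. Regions not kept were narrower than kept regions in SmoM2, at 418, 344 and 430 bp. The ratio of the width at kept regions to that at regions open in all 9 was 0.717 ± 0.0519 (SD, n = 3) in SmoM2 and 0.636 ± 0.0681 (SD, n = 3) in SmoM2-Sox9cKO. The difference, SmoM2-Sox9cKO minus SmoM2, was -0.0808 with p = 0.2 in a two-sided exact permutation test over 3 against 3 libraries, whose smallest possible p is 0.1. The groups overlapped, since SmoM2-Sox9cKO 2 at 0.706 lay above SmoM2 2 at 0.663.

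**Figure D3:**
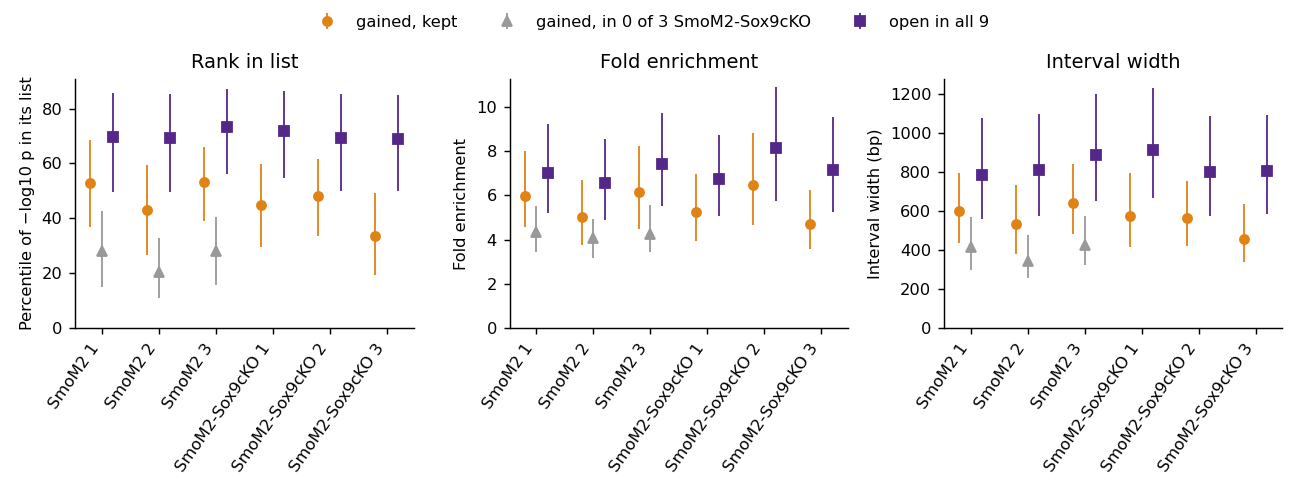
Points are medians and bars the interquartile range across regions, in each SmoM2 and SmoM2-Sox9cKO library, of rank percentile, fold enrichment and interval width in bp. Kept regions (circles) lie below regions open in all 9 (squares) in each library and above the regions not kept (triangles), which are called only in SmoM2.

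Summits lay about as close together between the 2 groups as within them. The median distance between the summits of 2 libraries at a kept region was 40 to 53 bp over the 9 pairs that join a SmoM2 and a SmoM2-Sox9cKO library, and 43 to 49 bp over the pairs within each group. The 6 summits of a region spanned a median of 133 bp, and 1342 regions (34.6%) had all 6 within 100 bp.

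Kept regions lay in gene bodies and in the space between genes rather than at gene starts. The median width of the merged region was 790 bp, 50.9% overlapped the body of a protein-coding gene and 16.2% lay over 100 kb from one. Over all regions these shares were 56.5% and 10.4%, so kept regions were in gene bodies less often than regions in general. A start site of any gene was covered by 62 of them (1.60%) and of a protein-coding gene by 37 (0.954%), both lower bounds since the table of starts is incomplete. Of regions open in all 9 adult libraries 21.3% covered a protein-coding start, and of all regions 8.67%. Of the 1155 regions not kept, 4 covered a protein-coding start (0.346%), 50.1% overlapped a gene body and 23.2% lay over 100 kb from one. Every chromosome examined held kept regions, at 2.76% of the regions of chromosome 17 up to 3.57% of those of chromosome 3.

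Many kept regions lay near other open DNA or near each other. A region open in all 9 adult libraries lay within 5 kb of 27.7% of kept regions, against 17.1% of regions not kept and 26.1% of the 2216 regions open in 3 of 3 WT and 0 of 6 other adult libraries. Another kept region lay within 50 kb of 38.0%. Joined at that distance they formed 605 chains of 2 or more with 1473 members, and 27 chains of 5 or more with 156 members. Set sizes differ, so the share of neighbours was not compared between sets.

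Several of the longest chains stood in stretches that were almost closed in WT. The chain upstream of Cdh5, the vascular cadherin, held 9 kept regions over 128 kb (chr8:103895530-104023665), with 1, 2 and 3 regions open in WT, 16, 14 and 16 in SmoM2 and 15, 15 and 13 in SmoM2-Sox9cKO. Cdh5 was assigned 2 kept regions in all, none in its body, so most of this chain had no protein-coding gene within 100 kb. In Pde1a, a cyclic nucleotide phosphodiesterase, 7 of 8 regions over 142 kb were kept and none was open in any WT or Embryo library. At Tmem26, a membrane protein gene, all 6 regions of an 83.3 kb stretch were kept, and at Pgm5 all 5 of a 26.2 kb stretch. In Ctnna2, an alpha catenin of neurons, a chain of 8 had no region open in WT. Every kept region in a chain is open in the 6 mutant libraries and closed in WT by the rule. The gap to WT is therefore largely set by the choice of regions in these counts. In the counts per gene given further on it is set at least in part by that choice, and both are descriptions.

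The 10 kept regions with the highest median rank covered no start listed in the table, the nearest lying 10.9 kb from one. The strongest (chr2:46512061-46513274) lay 1395 kb from Zeb2, its nearest protein-coding gene, with fold enrichment of 12.7, 9.80 and 12.8 in SmoM2 and 10.3, 12.7 and 13.9 in SmoM2-Sox9cKO. The second (chr8:6780825-6781737) lay 1676 kb from its nearest gene. The third lay within Ubr1, a ubiquitin ligase gene (chr2:120959356-120960212), with 14.1, 11.6 and 15.6 in SmoM2 and 14.9, 17.6 and 11.3 in SmoM2-Sox9cKO. At all 3 regions the groups overlapped in fold enrichment. Others lay in Dusp16, a phosphatase of MAP kinases, Plcl1, Dock9 and Cadps2, and 32.5 kb from Tle1, a corepressor. The Dock9 region was the only one of the 10 open in an Embryo library, at a fold of 2.87 in Embryo 1.

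At gene starts the kept regions named genes of varied function. Triml1, a tripartite motif gene, had fold enrichment of 12.3, 10.1 and 10.2 in SmoM2 and 8.29, 10.6 and 5.95 in SmoM2-Sox9cKO. Pmch, which encodes the precursor of melanin-concentrating hormone, had 8.36, 4.35 and 7.42 in SmoM2 and 13.4, 15.0 and 11.01 in SmoM2-Sox9cKO, and its 2 groups did not overlap. Ifi209, an interferon-inducible gene, had 7.61, 7.31 and 7.40 in SmoM2 and 6.76, 7.81 and 6.91 in SmoM2-Sox9cKO. The Pmch start was the one among those printed that was higher in each SmoM2-Sox9cKO library than in every SmoM2 library, and it was picked out after its values were seen.

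Further starts ranged from weak to strong. Tmprss11d, a membrane-bound serine protease of airway and esophageal epithelium, had 3.91, 3.27 and 3.92 in SmoM2 and 4.02, 3.34 and 3.81 in SmoM2-Sox9cKO. Fgf12, an intracellular relative of the fibroblast growth factors, had 3.08, 4.06 and 4.24 in SmoM2 and 4.67, 4.49 and 2.98 in SmoM2-Sox9cKO. Cdyl, a chromatin reader, had 8.88, 5.80 and 8.75 against 6.91, 4.23 and 4.76, and Trim2, a ubiquitin ligase, 10.7, 6.38 and 10.7 against 8.56, 9.16 and 7.47. The groups overlapped at each of these 4 starts. Actg1, a cytoplasmic actin expressed in every cell, also met the rule at 1 region over a start, at folds of 1.86 to 2.89, the weakest values given here for a start.

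Kept regions were spread over 2230 protein-coding genes (10.3% of those in the table), to which 3247 of them were assigned as the nearest gene body within 100 kb. One kept region was held by 1632 genes, 2 to 4 by 557 and 5 or more by 41. Genes with many were long, with a median body of 362 kb for 5 or more, 51.2 kb for 1 and 17.3 kb for all genes, so the count of kept regions also follows gene length.

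Ptprd, a receptor tyrosine phosphatase of cell adhesion, had the most, 14 of 42 regions. Open regions at Ptprd numbered 1, 2 and 1 in WT, 28, 23 and 30 in SmoM2 and 24, 25 and 19 in SmoM2-Sox9cKO, and the latter groups overlapped. The 14 kept regions, closed in WT by the rule, set part of the gap to WT there, where 19 regions were gained in SmoM2. Ctnna2 had 11, with 3, 3 and 3 open regions in WT, 26, 21 and 31 in SmoM2 and 21, 26 and 15 in SmoM2-Sox9cKO. Kcnma1, a calcium-activated potassium channel, had 10, with 3, 5 and 5 in WT, 35, 26 and 37 in SmoM2 and 27, 27 and 14 in SmoM2-Sox9cKO. Clstn2, a calsyntenin, had 9, with 2, 2 and 1, then 32, 21 and 31, then 17, 20 and 12. At Clstn2 each SmoM2-Sox9cKO library lay below every SmoM2 library although 9 gained regions were kept, and without SmoM2-Sox9cKO 3 it kept 14. Cdk14 and Lrmda had 8 each, and Cdh13, Cfap20dc, Elmo1, Ercc6l2, Pde1a and Zdhhc14 had 7 each. Adamtsl1, Ank, Arhgap15, Cdyl, Immp2l, Me3 and Nhsl2 had 6 each. Immp2l had 10 without SmoM2-Sox9cKO 3, and Nhsl2 had 0 when intervals needed a −log10 q of at least 5.

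Loci with a similar number of gained regions kept very different shares of them. Among the 63 genes with 8 or more gained regions the kept share ran from 0 to 80%, with a median of 50%. Pde1a kept 7 of 9. Pdgfd, a platelet-derived growth factor, kept 0 of 10, with 15, 10 and 12 open regions in SmoM2, 1, 6 and 0 in SmoM2-Sox9cKO and 0 in each WT library. Kcnb2, a potassium channel, also kept 0 of 10, Esrrg and Pam 1 of 8 each, and Sox5 2 of 9. At Pdgfd the SmoM2-Sox9cKO libraries all lay below the SmoM2 libraries. Without SmoM2-Sox9cKO 3, Pdgfd kept 1 of 10, Kcnb2 3 of 10, Esrrg 3 of 8, Pam 1 of 8 and Sox5 4 of 9. These loci were picked by their kept share, which the rule sets, so the spread between them is a description.

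**Figure D4:**
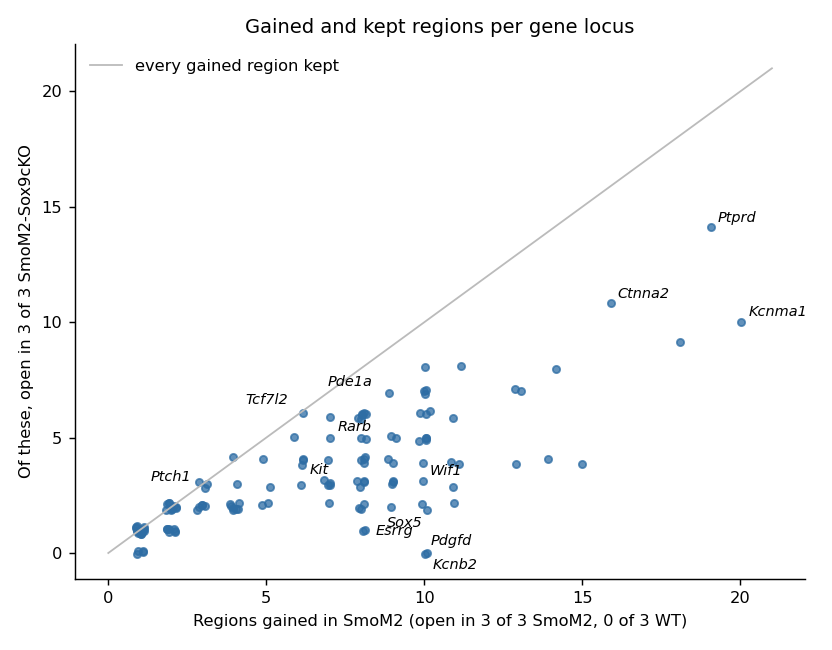
Each point is a gene named in the text, in the fixed lists or with at least 8 gained regions, placed by regions gained in SmoM2 (x) and how many of these were open in 3 of 3 SmoM2-Sox9cKO libraries (y), with small offsets added so that points do not hide each other. Ptprd at 14 of 19 has the most kept, Tcf7l2 and Ptch1 lie on the line on which every region is kept, and Pdgfd and Kcnb2 lie on the floor at 0 of 10.

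In 81 genes with a kept region (109 regions) no WT library had any open region. Those with 3 or more kept regions were Tmem26 and Wdr72 with 6 each, Ifi209 and Kit with 4 each, and Nox3 and Rtl1 with 3 each. Kit encodes the receptor for stem cell factor, a growth factor receptor of germ cells, melanocytes, mast cells and some epithelial progenitors. Its locus had 0 open regions in WT 1, 2 and 3, then 9, 6 and 9 in SmoM2 and 4, 5 and 4 in SmoM2-Sox9cKO, and 3 and 1 in the Embryo libraries. SmoM2 and SmoM2-Sox9cKO did not overlap in this count.

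The kept regions of Kit were its start, one 29.2 kb before the gene body, one inside it and one 18.8 kb beyond it, over the start of the non-coding gene Gm32558. At the start (chr5:75574453-75576329) fold enrichment was 7.33, 5.25 and 6.99 in SmoM2, 4.98, 8.74 and 4.46 in SmoM2-Sox9cKO, and 6.25 and 3.16 in Embryo 1 and 2. Inside the gene (chr5:75640316-75641067) it was 10.9, 9.37 and 11.99 in SmoM2, 7.19, 10.2 and 4.46 in SmoM2-Sox9cKO and 3.73 in Embryo 1. Beyond the gene (chr5:75675496-75677400) it was 8.07, 6.88 and 8.03, then 6.59, 10.1 and 8.21, and no Embryo library was open. SmoM2 and SmoM2-Sox9cKO overlapped at each of these 3 regions, while 1 of the 6 gained regions at Kit was open in no SmoM2-Sox9cKO library. Mast cells and melanocytes also use Kit, and their share in the sorted cells was not tested.

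Wif1, a secreted Wnt inhibitor, had 1 region open in each WT library, at its start, and 11, 11 and 13 in SmoM2 against 8, 10 and 4 in SmoM2-Sox9cKO. It kept 3 of 10 gained regions, 7 of 10 without SmoM2-Sox9cKO 3, and 0 when intervals needed a −log10 q of at least 5. Rarb, a retinoic acid receptor, kept 5 of 7 (8 kept without WT 2), with 27, 35 and 28 open regions in WT, 42, 37 and 45 in SmoM2 and 36, 33 and 32 in SmoM2-Sox9cKO. Rarb thus gained its kept regions within a locus that WT already had open, and Kit within one that was closed.

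**Figure D5:**
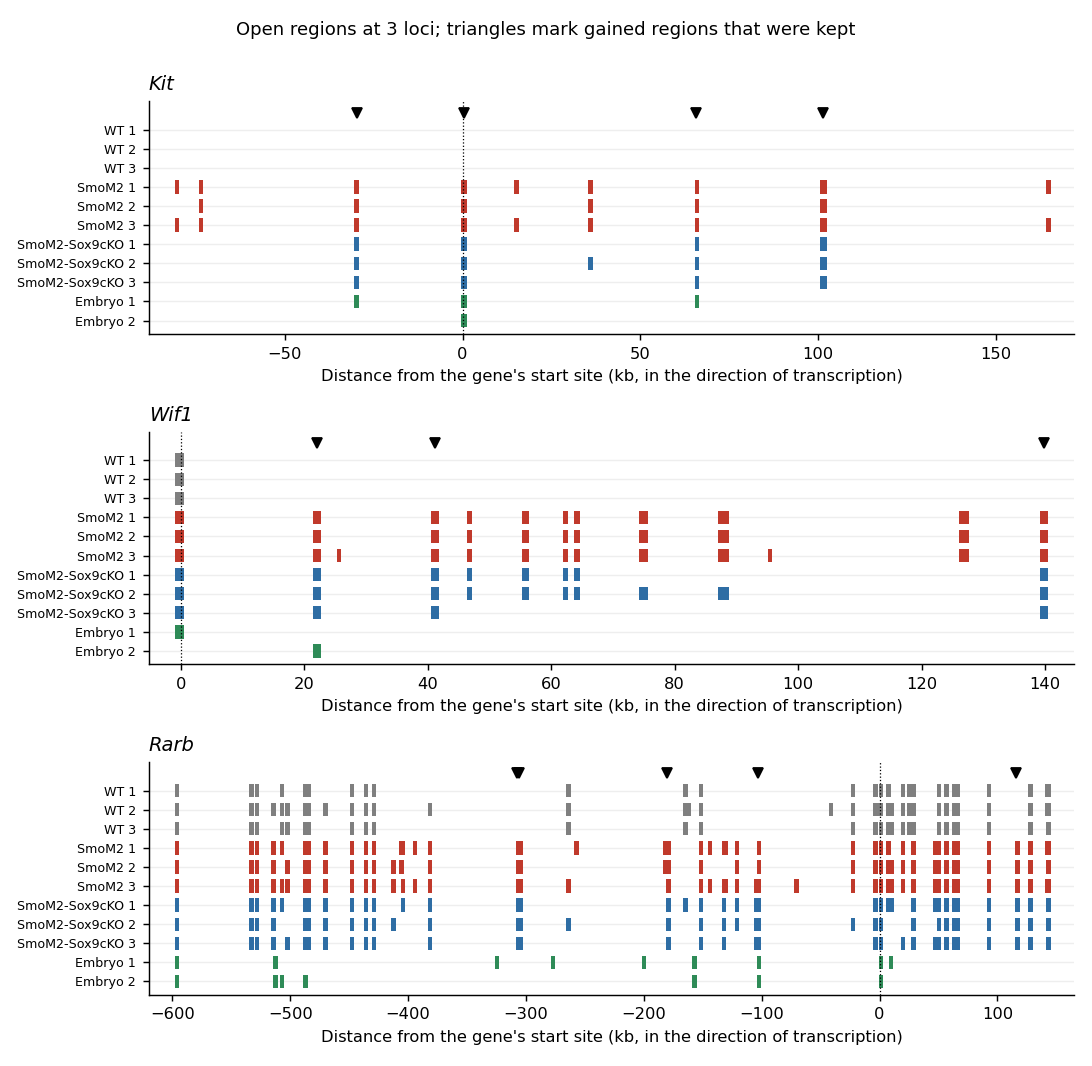
Blocks are open regions assigned to Kit, Wif1 and Rarb in each of the 11 libraries, by distance in kb from the gene's start, with narrow regions drawn wider than scale to be visible and regions of neighbouring genes left out. Triangles mark the 4 kept regions of Kit, the 3 of Wif1 and the 5 of Rarb, 2 of which nearly coincide. Of the other 7 gained regions of Wif1, 4 are missing only from SmoM2-Sox9cKO 3 in the mutant groups.

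The Hedgehog pathway list (31 genes, chosen with earlier results of these data known) held 17 kept regions at 8 genes, 4.56% of its 373 regions (exact 95% interval 2.68 to 7.20%), against 2.90% of all regions that have a gene. Of its 36 gained regions 47.2% were kept, against 45.7% over all genes. Ptch1, the receptor and a target of the pathway, kept 3 of 3 gained regions, with 8, 11 and 10 open regions in WT, 13, 12 and 15 in SmoM2 and 13, 15 and 14 in SmoM2-Sox9cKO. The most distant of them (chr13:63672272-63672871, 98.8 kb from the gene body) had fold enrichment of 12.3, 8.84 and 11.7 in SmoM2 and 9.80, 15.0 and 10.3 in SmoM2-Sox9cKO. It opened a chain of 6 kept regions over 138 kb toward Ercc6l2 with no region open in WT, and a second chain of 6, at Ercc6l2 and Hsd17b3, had 4, 2 and 3 regions open in WT. At Ptch1 the SmoM2 and SmoM2-Sox9cKO groups overlapped in open regions.

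Gli2, an effector of the pathway, kept 2 of 2, both inside the gene, and Gpc3, a proteoglycan that binds Hedgehog, kept 4 of 6. Foxc1 kept 2 of 3 and Bcl2 3 of 6, all 3 of them lost when intervals needed a −log10 q of at least 5. Gli1, the usual readout gene, had no gained region, with 2, 2 and 3 open regions in WT, 3, 3 and 3 in SmoM2 and 2, 3 and 3 in SmoM2-Sox9cKO. Smo kept 0 of 1. The pathway's kept regions named here were thus at the receptor gene Ptch1, the effector gene Gli2, Gpc3, Foxc1 and Bcl2. Gli1 had open regions in every adult library.

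The Wnt list (52 genes) held 30 kept regions at 17 genes, 5.16% of its 581 regions (interval 3.51 to 7.29%), against 2.90% over all genes. Of its 56 gained regions 53.6% were kept, against 45.7% over all genes. Tcf7l2, a transcription factor that binds beta-catenin, kept 6 of 6, and had 19, 25 and 22 open regions in WT, 31, 23 and 32 in SmoM2 and 30, 31 and 25 in SmoM2-Sox9cKO. Lgr5, a receptor for R-spondin and a stem cell marker, kept 5 of 6, with 4, 5 and 4, then 13, 12 and 15, then 16, 14 and 9. Its strongest kept region (chr10:115483902-115484962) had fold enrichment of 11.3, 11.9 and 11.6 in SmoM2 and 10.4, 14.8 and 10.6 in SmoM2-Sox9cKO. Axin2, a feedback inhibitor and target of the pathway, kept 2 of 2, and 0 when intervals needed a −log10 q of at least 5. At both Lgr5 and Tcf7l2 SmoM2 and SmoM2-Sox9cKO overlapped in open regions, and at Tcf7l2 WT overlapped SmoM2 too.

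Among growth factor pathways, the BMP and TGF-beta list held 14 kept regions (2.51%) and the Notch list 8 (2.65%), both near the 2.90% of all genes. Bmp5, a ligand, kept 3 of 3 and its strongest region (chr9:75808430-75809645) had fold enrichment of 11.1, 12.97 and 15.7 in SmoM2 and 10.5, 11.9 and 8.93 in SmoM2-Sox9cKO. Bmp6 kept 3 of 7, Bmp7 2 of 2 and the receptor gene Bmpr1b 2 of 7, or 6 of 7 without SmoM2-Sox9cKO 3. Jag1, a Notch ligand, and Notch3, a receptor, kept 1 of 1 each (Jag1 kept 2 without SmoM2 3), and Maml3, a coactivator, 4 of 6. The list of EGF, FGF, KIT and PDGF signaling held 17 (3.41%) and kept 39.5% of its gained regions, against 45.7% over all genes. Pdgfd supplied 10 of its 43 gained regions.

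Among transcription factor lists, the Sox list held 11 kept regions (4.49%, interval 2.26 to 7.89%), with Sox6 keeping 4 of 8, Sox13 2 of 2, Sox14 2 of 3 and Sox5 2 of 9. Without SmoM2-Sox9cKO 3, Sox6 kept 7 and Sox9 2, and Sox13 kept 0 when intervals needed a −log10 q of at least 5. Sox9 itself kept 1 of 2, 46.0 kb from its body (chr11:112833768-112834587), with fold enrichment of 6.16, 8.29 and 9.01 in SmoM2 and 6.08, 8.404 and 8.83 in SmoM2-Sox9cKO. Open regions at the Sox9 locus numbered 11, 7 and 9 in WT, 9, 10 and 11 in SmoM2 and 10, 12 and 9 in SmoM2-Sox9cKO, and the 3 groups overlapped. The foregut endoderm list held 19 (4.17%, interval 2.53 to 6.43%), led by Rarb and by Mecom, which kept 4 of 9, while Foxa2, a pioneer factor of endoderm, had no gained region. The list of AP-1, Runx and TEAD factors held 15 (4.46%, interval 2.52 to 7.26%) and kept 57.7% of 26 gained regions, against 45.7% over all genes. Runx1 kept 4 of 7, Fosl2 2 of 2 and Tead1 3 of 7. Tead1 kept 0 when intervals needed a −log10 q of at least 5. The intervals of these 3 lists all hold the 2.90% of all genes.

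In the squamous program the basal keratinocyte list held 9 kept regions (1.77%, interval 0.812 to 3.33%) and the squamous differentiation list 6 (2.10%, interval 0.774 to 4.51%), and both intervals hold the 2.90% of all genes. Trp63, the master regulator of stratified epithelium, kept 3 of 4 (5 kept without SmoM2 2), with 30, 33 and 28 open regions in WT, 34, 28 and 41 in SmoM2 and 36, 33 and 34 in SmoM2-Sox9cKO, which overlap. Krt5, Krt14, Sox2 and Klf4 held none. The columnar list held 7 (4.58%, interval 1.86 to 9.20%), 5 of them at Lgr5 and 2 at Cdh17, a cadherin of gut epithelium, while Krt8 and Epcam held none. Those at Cdh17 were lost when intervals needed a −log10 q of at least 5 and with adult lists of equal length. The hair follicle and basal cell carcinoma list held 12 (2.79%), the cell cycle list 6 (2.43%) and the housekeeping list 2 (1.74%).

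For genes of cell contact, the list of extracellular matrix and adhesion held 19 (5.31%, exact 95% interval 3.23 to 8.16%) at 11 genes, against 2.90% over all genes, and Itgb8, an integrin that activates TGF-beta, kept 4 of 5. Open regions at Itgb8 numbered 2, 3 and 3 in WT, 10, 10 and 10 in SmoM2 and 8, 9 and 10 in SmoM2-Sox9cKO, and the latter groups overlapped. The basement membrane collagen genes Col4a1, Col4a2 and Col4a3 kept 2 each. The axon guidance list held 39 (4.84%, interval 3.46 to 6.56%), and Ptprd alone supplied 14 of these 39 and 42 of the list's 806 regions. The ephrin receptor gene Epha7 kept 3 of 3. Of gained regions, the matrix and adhesion list kept 45.2% of 42 and the axon guidance list 44.3% of 88, against 45.7% over all genes. List shares were not adjusted for gene length.

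Markers of other cell types were examined because the gates could hold such cells. Against 2.90% over all genes, the fibroblast list held 7 kept regions (6.03%, interval 2.46 to 12.04%), the endothelium list 6 (3.90%, interval 1.44 to 8.29%), the glia and neuron list 7 (7.53%, interval 3.08 to 14.9%, all at Snap25 and Syt1), and the immune, muscle and Merkel lists 1 each. In the shorter set of defining markers, open regions at 5 endothelial genes summed to 21, 24 and 24 in WT, 34, 31 and 38 in SmoM2 and 36, 37 and 33 in SmoM2-Sox9cKO. At 6 fibroblast genes they summed to 13, 15 and 14, then 18, 19 and 20, then 23, 21 and 22. Of the fibroblast genes Lum was at 0 in all 9 adult libraries, and no endothelial gene was at 0. Both sums were higher in each library of the mutant groups than in every WT library. They include 6 and 5 kept regions, which the rule closes in WT, and their part in the kept regions was not tested. Fibroblast genes differed, with Twist2 at 0, 1 and 1 in WT, 6, 6 and 7 in SmoM2 and 5, 7 and 6 in SmoM2-Sox9cKO. Col1a1 had 4, 4 and 4, then 3, 3 and 3, then 5, 3 and 4. The sums of the glia, muscle, Merkel and hair follicle markers overlapped between WT and both mutant groups. The 5 immune genes summed to 9, 6 and 11 in WT, 15, 10 and 13 in SmoM2 and 11, 11 and 15 in SmoM2-Sox9cKO, which overlap. In bulk cells more cells of a type and more open chromatin per cell cannot be told apart.

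Few kept regions were open in the embryonic esophagus. They were open at 172 of 3877 in Embryo 1 (4.44%) and at 67 in Embryo 2 (1.73%), with 47 in both, against 19.6% and 11.2% of all regions. Without regions over protein-coding starts the shares were 4.19% and 1.64% of kept regions and 13.7% and 6.52% of all. Regions not kept had 4.59% and 1.56%, whose exact intervals overlap those of the kept regions, and regions open in WT alone of the adult groups had 2.17% and 0.767%. A difference between kept and not kept regions was not detectable in these 2 libraries. With intervals of −log10 q of at least 5 alone, the kept shares fell to 2.53% and 0.772%, and both Embryo lists are short, so a region closed there may have been missed.

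The 47 kept regions open in both Embryo libraries lay at genes of varied kind. The strongest lay at Tm4sf1, a tetraspanin-like gene (chr3:57343866-57344953), with fold enrichment of 12.9, 9.73 and 10.7 in SmoM2, 11.9, 14.1 and 14.0 in SmoM2-Sox9cKO and 8.21 and 3.73 in Embryo 1 and 2. The Rarb region inside the gene (chr14:16677865-16679343) had 7.86, 8.57 and 7.16, then 5.04, 9.34 and 6.84, then 3.44 and 3.24. The Magi1 start, of a junction scaffold gene, had 10.6, 8.18 and 7.49, then 4.42, 8.73 and 5.01, then 7.68 and 4.47. Regions inside Trp63 and Tcf7l2 were also open in both, as was a region of Mecom. At Tm4sf1 the 2 mutant groups overlapped, and the Embryo lists are much shorter, so their values are not on one scale with these.

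At the edge of the rule, the weakest kept region (chr1:106643673-106644601, in Bcl2) had −log10 q values of 1.36 to 5.47 in the 6 libraries that had to be open. Just outside it, regions with 1 open WT library included one (chr3:122829623-122830471) with values of 37.5 to 104 in the same 6 libraries. The second weakest kept region (chr1:161230044-161230425) had 1.51 to 5.01. Strong regions were therefore left out by 1 call in WT, and weak ones were taken in.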

How the data were processed

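Peak lists of 11 ATAC-seq libraries were used. The submitters' processing notes name Trimmomatic, Bowtie2, Picard, MACS2 and deepTools and the builds GRCm38 and mm10, and the sources used here give no role, version or setting for any tool. The lists have the 10 columns of the narrowPeak format and no header, 1 list per library. The score column deposited by the authors was not used. The fold enrichment column deposited by the authors is taken as a ratio over background from the place it has in that format. The authors also deposited each peak's p-value and q-value as −log10, and every fold enrichment printed is the peak's own value. Read numbers were not used here, so depth is unknown and intervals cover counting error across regions only.

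Lines repeating an interval with another summit were collapsed to the strongest, intervals were merged with a shared 1 bp, and regions were given to the nearest of 21631 protein-coding gene bodies within 100 kb (RefSeq, GRCm38.p6). Coordinates are 1-based. No start windows on chromosome 18 were used. Members, gene lists and motifs were chosen with earlier results of these data known. The genes named follow a rule: the 10 members of highest median percentile, the 20 loci with most members, up to 4 genes per list (22 lists), and 13 always named. An item that this rule would name is not reported here. Start-site genes, Pdgfd and other loci given for their kept share were named after their values were seen. The single test, of width ratios, was a two-sided exact permutation test. The labels do not say that replicates were separate animals, so its p-value measures the spread between these libraries. The region rule recovered 582 of 582 members planted in simulated data of 18947 regions. These were planted apart from each other and without missed calls, so the recovery checks the code, not the accuracy of the rule on real lists. Python 3.11.15, pandas 2.3.3 and scipy 1.17.1 were used.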

Additional observations from a re-analysis of the deposited data

Results flagged for a closer look

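Intervals at 4 Y-linked genes, on a chromosome left out of all comparisons, numbered 9 in each of SmoM2 1, 2 and 3, 8 in SmoM2-Sox9cKO 1 and 10 in SmoM2-Sox9cKO 2. These are above the highest WT library, WT 1 with 5, while WT 2, WT 3, SmoM2-Sox9cKO 3 and both Embryo libraries had 0. SmoM2-Sox9cKO 3, the library that removed most regions from the rule, thus differed from the other libraries of its group here too. All kept regions were open in it by the rule, and whether the sex of the mice moves with any result was not tested.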

How the results depend on the processing

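The count of kept regions stayed within 1.5 times of 3877 under all alternatives except openness in 2 of 3 libraries in place of 3 of 3 (with 0 of 3 WT), which gave 7860 and kept 55.3% of gained regions. With −log10 q of at least 5, 47.9% of gained regions were kept, and 2.53% and 0.772% of kept regions were open in Embryo 1 and 2. With the adult lists cut to the 69026 strongest intervals, 48.8% were kept, and 5.56% and 2.20% were open in the Embryo libraries. Leaving out each adult library in turn gave 3931 to 5531 kept regions (highest without SmoM2-Sox9cKO 3), a kept share of 36.5% (without SmoM2 2) to 64.0% (without SmoM2-Sox9cKO 3), 4.14% to 5.36% open in Embryo 1, and 3.44% to 4.31% within 1 kb of a gene end (3.61% with all libraries). Windows of fixed width around summits, a 100 bp overlap, autosomes alone and the 9 adult lists alone moved none of these values beyond its interval. Of 91 loci followed that held a kept region, 73 held one under all 16 alternatives. With −log10 q of at least 5, 16 held none, among them Axin2, Bcl2, Cdh17, Nhsl2, Sox13, Tead1 and Wif1. With lists of equal length 6 held none, Cdh17 among them, and autosomes alone leave out Gpc3 and Nhsl2. Kept regions at Wif1 ran from 0 to 7. The width difference of -0.0808 stayed below 0 in each alternative that gave one, from -0.115 to -0.0530 without 1 library (p = 0.2 to 0.4 in exact permutation tests). Fixed windows have no width, and the adult lists alone give no Embryo value. With a replicate block it was -0.0808 with p = 0.5 in an exact paired sign-flip test, whose smallest possible p is 0.25. Same-numbered SmoM2 and SmoM2-Sox9cKO libraries did not deviate together in log2 width (correlations of -0.0365, 0.0103 and -0.0219 across 44519 regions). Pairs with other numbers ran from -0.0622 to 0.0799. The numbers thus showed no pairing in width, and a pairing that does not act on width cannot be seen by this measure. Unknown depth limits every statement that a region was closed.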
